A study of Mus musculus with 2 samples.

Results

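Mouse histone genes of the clustered, replication-dependent families were followed in cells of the mitral valve. A gene was included when its symbol in the gene list began with Hist1h, Hist2h, Hist3h or Hist4 and when it had at least 20 UMIs (unique molecular identifiers, each counting 1 captured transcript) over both libraries. This gave 50 of 32285 genes, out of 67 with such symbols. The 50 comprised 5 genes of the linker histone H1, 12 of H2A, 14 of H2B, 10 of H3 and 9 of H4. The lowest genes inside the minimum were Hist1h4n with 23 UMIs and Hist1h2bp and Hist1h2ag with 22, and the highest outside it was Hist2h2ab with 18.

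Core histones H2A, H2B, H3 and H4 form the protein spool around which DNA is wound, and H1 binds the DNA between spools. Clustered histone genes are transcribed mainly while DNA is copied, and most of their mRNAs end in a short stem-loop, bound by the protein Slbp, instead of a poly(A) tail. Some of these genes also give transcripts with a poly(A) tail, which have been described in differentiated cells. The kit used here primes on poly(A), so the counts report captured transcripts, and the total amount of each histone mRNA was not measured.

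The data were 2 single-cell 3′ RNA libraries of C57BL/6J mitral valves at 1 month of age. For the wild type library (Fbn1 +/+) valves of 5 mice were pooled. The other library pooled 3 mice of genotype Fbn1 C1039G/+, which carry 1 copy of a missense allele of fibrillin-1 in all tissues and serve as a model of Marfan syndrome. Both leaflets were digested with collagenases, dispase, elastase and hyaluronidase before capture. Cell class was set by transcripts alone. Interstitial cells had at least 1% of their UMIs in Dcn, Col1a1, Col1a2 and Col3a1. Of the cells under 1%, macrophages had at least 10 UMIs of C1qa, C1qb and C1qc, and endothelial cells at least 5 UMIs of Pecam1, Cdh5 and Emcn. Cells with at least 2 UMIs of Top2a and Mki67, 2 genes of dividing cells, were called cycling, and cells with 0 non-cycling. Cells with 1 such UMI were left out. None of these genes is a histone gene.

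Both genotypes had a single library of pooled animals, so genotype, pool and library cannot be told apart and no p-value was computed. Values of both libraries are set side by side, and intervals (95%) cover counting error only. With 2 libraries the smallest 2-sided exact p would be 0.5. Levels are CPM, the usual scaling of a gene's UMIs by all UMIs of the cells summed, and were not divided by transcript length, since a 3′ UMI counts 1 end per transcript.

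The 9190 wild type and 9440 Fbn1 C1039G/+ cells kept held a median of 9918 and 9816 UMIs. Cycling cells numbered 92 and 120 among interstitial cells, 100 and 128 among macrophages and 23 and 39 among endothelial cells, wild type first. Non-cycling cells numbered 7376 and 7509, 647 and 679, and 233 and 270. All 10 markers listed for each class were detected in that class in both states and both libraries. Cycling cells were deeper, with medians of 21814 and 19535 UMIs against 10036 and 10007 in interstitial cells. Macrophage markers summed to 2896 and 3017 CPM in cycling interstitial cells against 590 and 439 CPM in non-cycling ones, and T cell markers to 121 and 20.9 CPM against 4.23 and 1.61. Of the barcodes, 17 occurred in both libraries.

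Of the 50 genes, 39 lie on chromosome 13, 8 on chromosome 3, 2 on chromosome 11 and 1 on chromosome 6 in GENCODE M21 (mm10). The longest model of 36 of them holds a stem-loop of 16 bases, searched on the transcript strand as an arm spelled GGCTCT or in other searches GGCCCT or further GGTCCT or finally GGTTCT, with a loop spelled TTTN and then the arm's reverse complement. Such a sequence is found in 48 of 21901 protein-coding genes (0.219%), of which 37 are among the 50 when all of a gene's models are searched. The loops of 5 of the genes on which the results turn are given from GENCODE M21 transcripts, with the 4 loop bases in capitals and the 2 arms that pair in lower case.
Hist1h1c: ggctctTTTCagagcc
Hist3h2a: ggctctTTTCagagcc
Hist1h1e: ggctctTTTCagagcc
Hist1h2ae: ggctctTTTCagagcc
Hist1h4d: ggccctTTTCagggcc
The H4 gene differs from the H1 and H2A genes in the paired arms and has the same loop. What follows the loop differs more between genes. The model of Hist1h1c goes on for 840 bases after it and that of Hist3h2a for 1643, both with a poly(A) signal (AATAAA) in their last 50 bases. That of Hist1h2ae, read mainly in cycling cells, goes on for 151 bases and also has AATAAA in its last 50. The last 50 bases of the Hist1h2bc model lack AATAAA, and the signal was not tied to the levels by any test. Hist1h2ap, an H2A gene, ends 3 bases after its loop. Of the 36 genes, 12 had AATAAA after the loop and 15 ended within 100 bases of it. No such sequence was found in the longest models of Hist1h1b and Hist1h2bc, which says only that these letters are not in the annotated transcript.

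Upstream sequences of the histone genes were also compared. RefSeq promoters (GRCm38.p6) matched 45 of the 50 genes, 1 of them with 2 promoters. The 250 bases before the start are shown for the H1 genes Hist1h1b and Hist1h1c, of which the first was read almost solely in cycling cells and the second in both states, with each CCAAT box and each TATAAA box in capitals on either strand.
Hist1h1b (chr13:21780626-21780875, minus strand): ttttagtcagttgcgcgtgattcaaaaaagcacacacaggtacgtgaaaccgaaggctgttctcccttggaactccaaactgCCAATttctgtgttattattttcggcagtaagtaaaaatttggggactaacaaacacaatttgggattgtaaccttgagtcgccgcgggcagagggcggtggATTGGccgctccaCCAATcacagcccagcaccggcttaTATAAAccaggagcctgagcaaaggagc
Hist1h1c (chr13:23738557-23738806, plus strand): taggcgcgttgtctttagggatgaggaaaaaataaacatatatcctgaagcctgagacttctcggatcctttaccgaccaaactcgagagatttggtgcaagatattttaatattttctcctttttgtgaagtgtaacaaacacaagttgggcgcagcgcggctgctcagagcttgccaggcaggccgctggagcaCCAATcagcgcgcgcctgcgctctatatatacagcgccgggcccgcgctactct
Both hold a CCAAT within 54 bases of the start, and only the first of this pair holds TATAAA. Of the 5 H1 promoters 4 hold TATAAA, among them that of Hist1h1e, which was read in both states. In the full window of 300 bases, searched on both strands, CCAAT was in 41 of 46 histone promoters (89.1%) against 37.4% of 32851 promoters, and TATAAA in 26 of 46 (56.5%) against 13.6%. The octamer ATTTGCAT was in 10 of 46 (21.7%) against 1.74%, in 5 of 12 H2A promoters, 5 of 13 H2B promoters and none of H1, H3 or H4. Some of these windows overlap, since 16 of the 50 genes lie head to head with another gene within 500 bases, among them Hist1h2ae and Hist1h2bg at 176 bases. A match describes the sequence and was not tied to the levels by any test.

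Of the histone transcripts captured in cells called non-cycling, 3 genes made up most. In non-cycling interstitial cells the H2B gene Hist1h2bc was at 264 and 294 CPM (wild type first, here and after), the H1 gene Hist1h1c at 83.8 and 79.5 CPM and the H2A gene Hist3h2a at 28.9 and 32.2 CPM. These 3 held 86.8% and 87.4% of histone UMIs there. All of the remaining 47 genes together reached 57.4 and 58.6 CPM, led by Hist1h1e at 12.7 and 13.7 CPM, Hist1h4i at 6.51 and 7.67 CPM and Hist1h4d at 6.53 and 5.93 CPM. No H3 gene passed 3.52 CPM in either library.

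Hist1h2bc was the highest of the 50 in non-cycling cells of each class, but its level differed between classes. It was at 93.1 and 118 CPM in macrophages and at 315 and 335 CPM in endothelial cells. Its ratio of macrophage to interstitial level was 0.35 (0.32 to 0.38) and 0.40 (0.37 to 0.44), a call of lower, which here means at least 2-fold in both libraries with both intervals excluding 1. Of 8838 genes with a mean of at least 10 CPM over the 4 values compared, 20.6% were lower by this rule and 13.6% higher. Hist1h2bc was the only one called of the 4 histone genes that passed the 10 CPM minimum.

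Hist3h2a and Hist1h1c differed from it in their order over the classes. Hist3h2a was at 41.7 and 57.5 CPM in macrophages and at 46.2 and 50.2 CPM in endothelial cells, above interstitial cells by 1.44-fold to 1.78-fold in the macrophages of the 2 libraries and by 1.60-fold and 1.56-fold in endothelial cells. Hist1h1c was lowest in macrophages, at 47.6 and 56.1 CPM, and highest in endothelial cells, at 164 and 130 CPM. None of these passed 2-fold in both libraries. Endothelial cells had no call among the 4 histone genes measured, against 11.5% of 9130 genes called higher and 8.18% lower. Hist3h2ba, an H2B gene next to Hist3h2a, was near 0 in interstitial cells (0.38 CPM in each library) and at 11.9 and 9.64 CPM in macrophages and 12.7 and 7.41 CPM in endothelial cells. Its mean lay under the level minimum in both comparisons with interstitial cells.

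**Figure D1:**
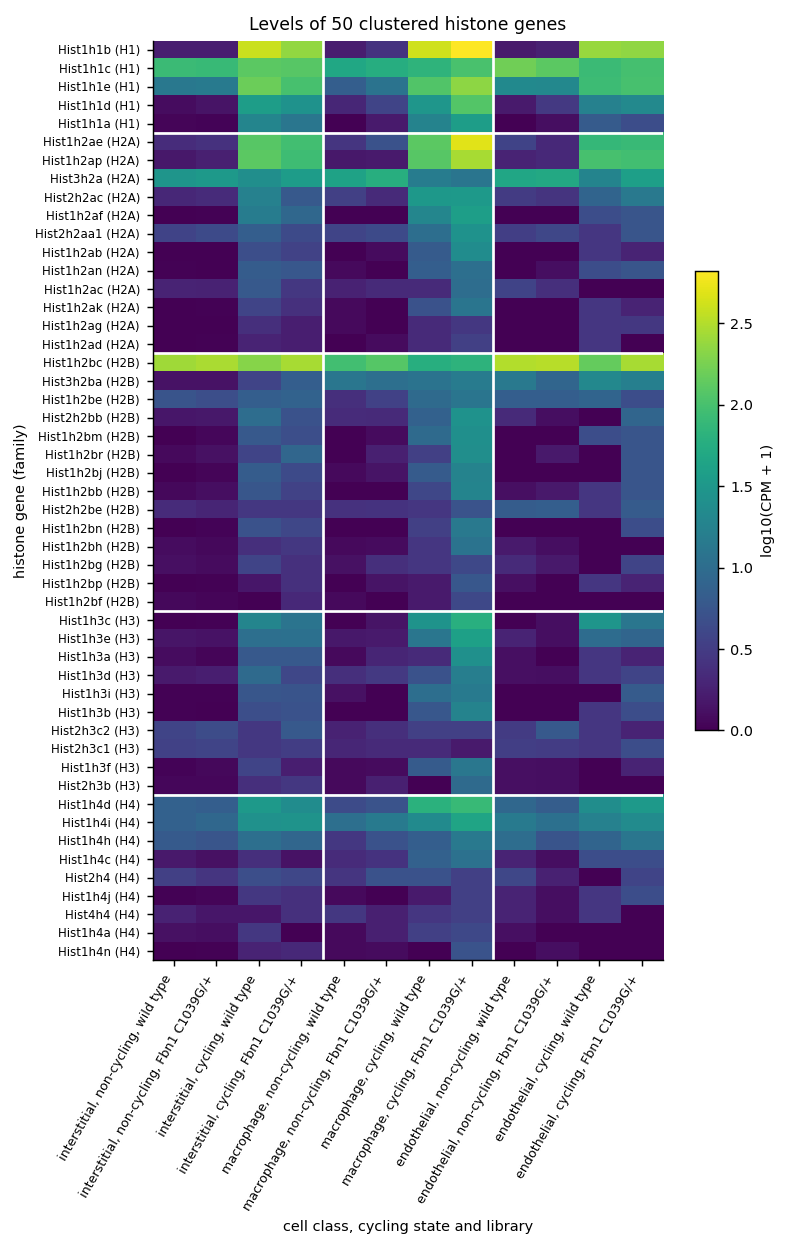
Levels of the 50 histone genes (rows, grouped by family) in each cell class, cycling state and library (columns), as log10(CPM + 1). Hist1h2bc and Hist1h1c are bright in all 12 columns, and most other genes are bright only in columns of cycling cells.

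Cycling cells held more histone transcripts in each class. The 50 genes summed to 1446 CPM in cycling against 434 CPM in non-cycling interstitial cells of the wild type library, a ratio of 3.33 (3.21 to 3.45), and 2.54 (2.45 to 2.63) in the Fbn1 C1039G/+ library, from 1178 against 464 CPM. In macrophages the ratios were 5.28 (4.93 to 5.65) and 8.53 (8.06 to 9.04). Endothelial ratios were smaller, 1.48 and 1.91, from 929 against 628 CPM and 1145 against 599 CPM. Wild type cycling endothelial cells rested on few cells: 5 of the 23 held 76.9% of their histone UMIs.

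Counted over all 50 genes, the ratio of cycling to non-cycling cells was above 1 in both libraries for 43 genes in interstitial cells, 42 in macrophages and 25 in endothelial cells. Over all genes with at least 20 UMIs these shares were 35.8%, 33.4% and 25.9%. Both intervals lay above 1 for 34 histone genes in interstitial cells (16.2% of all genes), 29 in macrophages (9.33%) and 12 in endothelial cells (5.79%). They lay below 1 for none in interstitial cells (9.41% of all genes), for Hist1h2bc and Hist3h2a in macrophages (5.19%), and for Hist1h2bc and Hist1h1c in endothelial cells (3.86%). The median log2 ratio of the 50 genes was 1.68, 2.18 and 1.03 in the 3 classes, and that of all genes -0.01, 0.00 and -0.10. Log2 values here and below use a pseudocount of 1 CPM, which makes the ratios of low genes smaller.

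By the 2-fold rule 7 of the 10 measured histone genes were higher in cycling interstitial cells (7.59% of 9061 genes), 13 of 17 in macrophages (5.28% of 8185) and 6 of 11 in endothelial cells (3.73% of 9177). Of the measured genes 6, 12 and 5 reached the level minimum only through the cycling cells and so had to differ. Hist1h1b, Hist1h1e, Hist1h2ae, Hist1h2ap and Hist1h4d were called in all 3 classes. For Hist1h4d the endothelial mean log2 ratio was 1.89, and it reversed to -0.0902 after thinning to 3000 UMIs per cell. Hist1h1c, Hist1h2bc and Hist3h2a were measured in all 3 and called higher in none. In macrophages Hist3h2a was called lower, which 0.635% of genes were. This call ended after thinning to 3000 UMIs per cell, where the mean log2 ratio was -1.93 against -1.84.

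Among the linker histones Hist1h1b was the cycling gene with the highest level. It was at 392 and 232 CPM in cycling interstitial cells and at 0.72 and 0.75 CPM in non-cycling ones, ratios of 545 (417 to 726) and 311 (239 to 412). In macrophages it was at 415 and 667 CPM against 0.69 and 1.57 CPM, and in endothelial cells at 242 and 225 CPM against 0.59 and 0.82 CPM. The summed levels were far apart in every class and library, but single cells of the 2 states overlapped. The median Hist1h1b count was 0 UMIs in cycling interstitial and endothelial cells of both libraries, and 1 and 4.5 in cycling macrophages. Of the 23 wild type cycling endothelial cells 7 had a Hist1h1b UMI, and 5 cells held 98.5% of these UMIs. At its own depth 46.7% and 43.3% of cycling interstitial cells and 0.746% of non-cycling cells in each library had a Hist1h1b UMI. Thinned to 3000 UMIs per cell, the shares were 31.5% (22.2 to 42.0) and 20.3% (13.5 to 28.7) against 0.177% and 0.208%.

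Hist1h1e was read in both states and rose. It was at 154 and 99.99 CPM in cycling against 12.7 and 13.7 CPM in non-cycling interstitial cells, 12.1-fold and 7.32-fold. In macrophages the ratios were 19.0 and 20.3. The last bases of its model also lie within the model of Hist1h2be, which overlaps it on the same strand, so reads could not always be given to 1 of the 2. Hist1h1d, at 36.2 and 26.9 CPM in cycling interstitial cells against 0.24 and 0.42 CPM, was 151-fold and 64.6-fold higher. Hist1h1a was at 17.4 and 36.8 CPM in cycling macrophages, with 0 UMIs in non-cycling wild type macrophages, at least 33.6-fold with the 0 set at 3 counts, and 62.3-fold (20.3 to 311) in the other library. Hist1h1c moved little beside these, 1.54-fold in both libraries in interstitial cells and 1.42-fold and 1.82-fold in macrophages.

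Hist1h2ae and Hist1h2ap led the H2A genes of cycling cells. Hist1h2ae was at 123 and 91.8 CPM in cycling interstitial cells against 1.31 and 1.5 CPM, ratios of 93.5 and 61.0, and at 129 and 491 CPM in cycling macrophages against 1.72 and 4.13 CPM. Hist1h2ap was at 129 and 88.4 CPM against 0.50 and 0.77 CPM in interstitial cells, ratios of 256 and 115. Every stretch of 60 bases in the last 300 bases of its model also occurs in another histone gene, and 18.7% of those of Hist1h2ae do, so the split of reads between such genes is uncertain. This holds to some extent for 29 of the 50 genes. In macrophages Hist1h2af was at 18.6 and 37.4 CPM in cycling cells with 0 UMIs in non-cycling cells of both libraries, at least 35.9-fold and 63.4-fold higher. Hist3h2a went the other way in macrophages, from 41.7 and 57.5 CPM to 14.4 and 11.7 CPM, ratios of 0.34 (0.22 to 0.52) and 0.20 (0.12 to 0.32). In interstitial cells its ratios were 0.82 and 1.10.

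H2B sums were close between the states of interstitial cells. Its 14 genes summed to 249.3 and 327 CPM in cycling and 272 and 301 CPM in non-cycling interstitial cells, while the 5 H1 genes went from 97.6 and 94.4 CPM to 729 and 494 CPM. Most of the H2B sum was Hist1h2bc, whose ratio of cycling to non-cycling level was 0.77 (0.70 to 0.84) and 0.96 (0.89 to 1.03) in interstitial cells, 0.62 and 0.57 in macrophages and 0.46 and 0.85 in endothelial cells. Single H2B genes did differ. Both intervals of 9 of the 14 lay above 1 in interstitial cells, though in cycling interstitial cells only Hist1h2bc passed 10 CPM in either library.

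H3 and H4 genes were low. The 10 H3 genes summed to 57.6 and 48.1 CPM in cycling interstitial cells and to 67.7 and 194 CPM in cycling macrophages, against 4.66 to 7.81 CPM in non-cycling cells of these classes. Hist1h3c was the highest of them, at 27.0 and 59.5 CPM in cycling macrophages with 0 and 0.39 CPM in non-cycling ones, at least 52.1-fold and 151-fold (40.7 to 1266). Among H4 genes Hist1h4d was at 62.3 and 79.1 CPM in cycling macrophages against 3.45 and 4.33 CPM, 18.1-fold and 18.3-fold. Hist1h4i was read in both states, at 26.0 and 27.2 CPM against 6.51 and 7.67 CPM in interstitial cells, 3.99-fold and 3.55-fold.

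**Figure D2:**
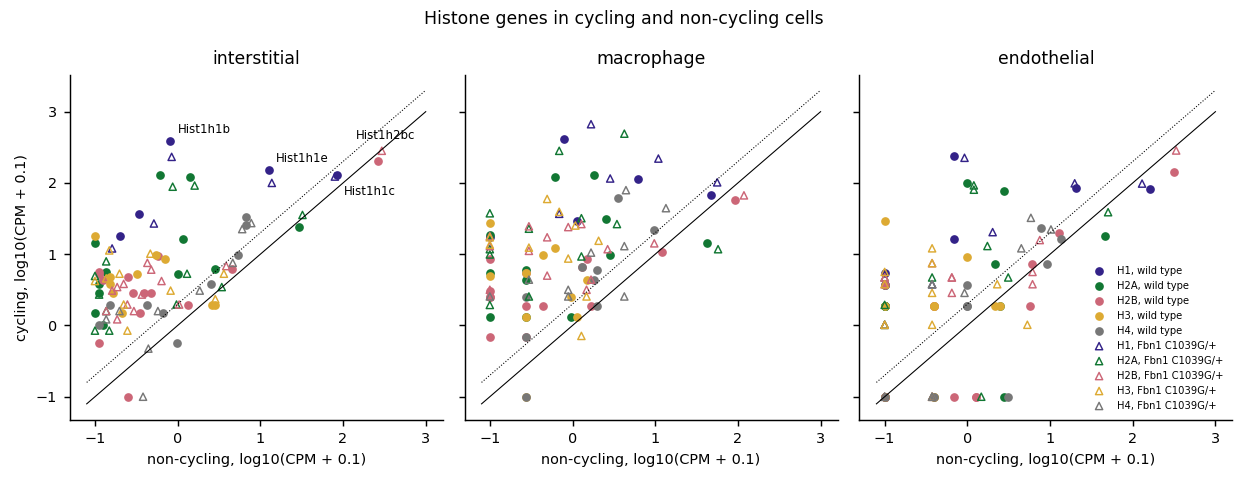
Level of each of the 50 histone genes in cycling cells (y axis) against non-cycling cells (x axis), both as log10(CPM + 0.1), with filled circles for the wild type and open triangles for the Fbn1 C1039G/+ library and colours for families. The solid line marks equal levels and the dotted line 2-fold. Most points lie above the dotted line at the left, and Hist1h2bc and Hist1h1c lie near the solid line.

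The contrast can be put in 2 sums, which were chosen from these calls and are given as a description. Hist1h2bc, Hist1h1c and Hist3h2a together were at 377 and 406 CPM in non-cycling and 356 and 441 CPM in cycling interstitial cells, and at 182 and 232 CPM against 140 and 180 CPM in macrophages. The other 47 genes went from 57.4 and 58.6 CPM to 1091 and 737 CPM in interstitial cells, 19.0-fold and 12.6-fold. In macrophages they went from 58.5 and 81.7 CPM to 1132 and 2495 CPM, 19.4-fold and 30.5-fold, and in endothelial cells 6.63-fold and 8.61-fold. With cells that met the condition of a second class left out, the summed log2 ratio of all 50 genes was 1.67 in interstitial cells (1.54 with them) and 2.84 in macrophages (2.75 with them).

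**Figure D3:**
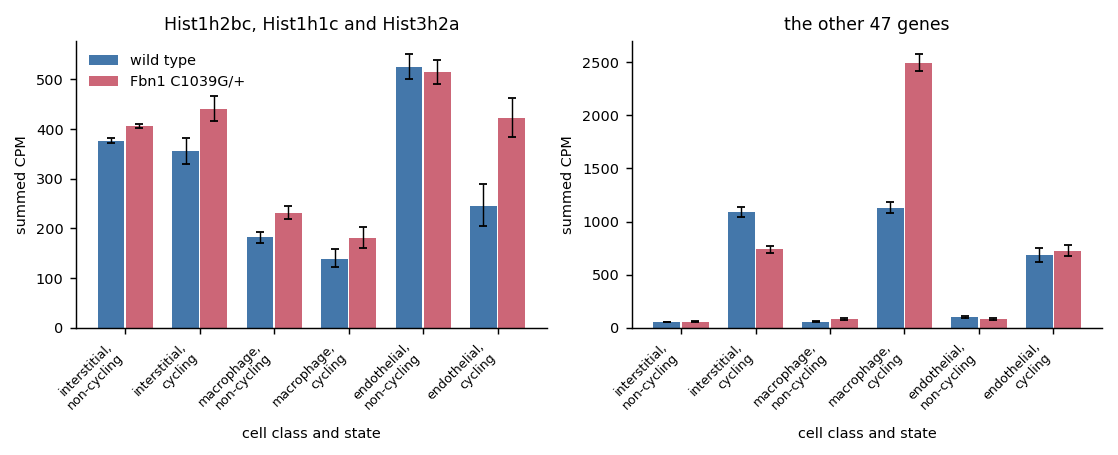
Summed CPM of Hist1h2bc, Hist1h1c and Hist3h2a (left) and of the other 47 histone genes (right) in each cell class, state and library, with 95% Poisson intervals as bars. The 3 genes are at similar levels in both states of interstitial cells, and the 47 are high only in cycling cells, most of all in cycling macrophages of the Fbn1 C1039G/+ library at 2495 CPM.

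Within cycling cells histone levels were higher in G2M-rich than in S-rich cells, though highest in cells with mixed values of the 2 lists, as given below. Cycling cells were split by whether UMIs of a list of 32 S phase genes exceeded those of 34 G2/M genes. S-rich interstitial cells (29 and 39) had 992 and 803 histone CPM, and G2M-rich cells (62 and 81) 1735 and 1372 CPM. S-rich macrophages (46 and 53) had 891 and 1832 CPM, and G2M-rich ones (52 and 74) 1676 and 3202 CPM. None of the 50 genes is on either list. A split on such a score is a range, and 2 to 4 cells of each group lay near it.

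Of the 50 genes, 3 had an S-rich to G2M-rich ratio above 1 in both interstitial libraries (31.0% of all genes), and 6 in macrophages (27.2%). Below 1 in both libraries were 32 in interstitial cells and 37 in macrophages, for which the share of all genes was not counted. Both intervals lay below 1 for 8 and 10 genes (4.22% and 2.49% of all genes) and above 1 for none (3.2% and 2.01%). By the 2-fold rule Hist1h4i was lower in S-rich interstitial cells, 1 of 12 measured (2.74% of genes), and 7 of 26 in S-rich macrophages (1.76%), where 7 of the 26 reached the level minimum only through the higher set. Those called included Hist1h1e, Hist1h4d and Hist1h3c. Hist1h1c and Hist1h2bc were also lower there, though neither rose with cycling by the 2-fold rule. No histone gene was called higher (1.24% and 1.01% of genes).

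Ordered by the share of S phase UMIs among S and G2/M UMIs, the cells with mixed values were highest. This division was chosen after the values above were seen. In wild type interstitial cells the 47 genes other than Hist1h2bc, Hist1h1c and Hist3h2a were at 452 CPM where the S share was under 20% (38 cells), 2267 CPM at 20 to 40% (20 cells), 2367 CPM at 40 to 60% (14 cells) and 103 CPM at 60% and over (20 cells). Fbn1 C1039G/+ interstitial cells followed the same order of high and low bins, with 416, 1742, 2145 and 402 CPM. In macrophages the values were 582, 2249, 2158 and 415 CPM in the wild type and 1828, 3693, 4129 and 1186 CPM in the other library. In each of these 4 series both middle bins were above both outer ones, and the intervals of middle and outer bins did not overlap. Endothelial bins held 2 to 15 cells. Top2a and Mki67, which set the cycling state, summed to 1855, 1715, 1145 and 281 CPM over the wild type interstitial bins. In the other library they summed to 1541, 862, 895 and 353 CPM. In macrophages the sums were 1752, 1870, 1193 and 473 CPM in the wild type and 1447, 1666, 1503 and 561 CPM in the other library. Their part in the result was not tested.

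**Figure D4:**
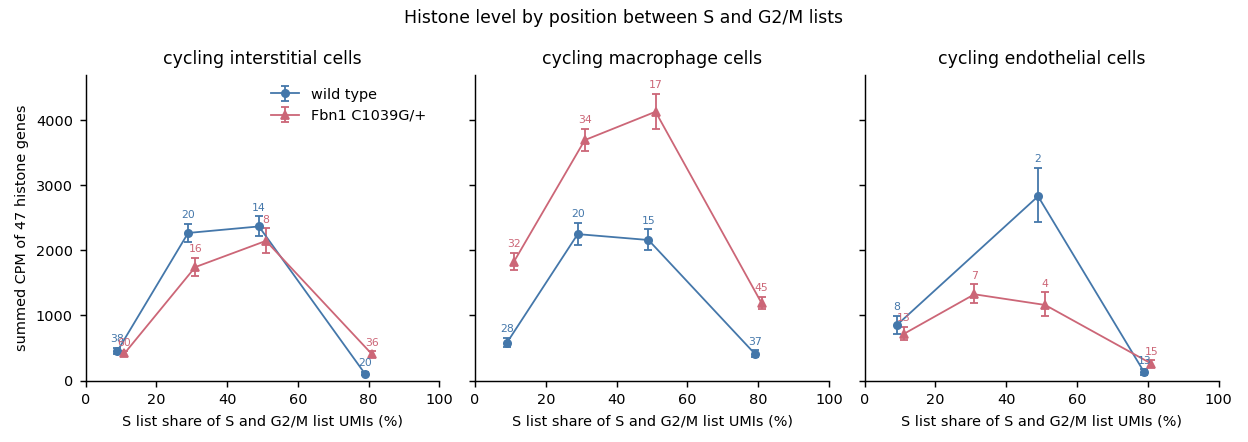
Summed CPM of 47 histone genes (y axis) in cycling cells grouped by the share of S list UMIs among S and G2/M list UMIs (x axis, points at the middle of each group), with 95% Poisson intervals and the number of cells above each point. In interstitial cells and macrophages of both libraries the 2 middle groups are highest.

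The comparison of the 2 genotypes describes how histone transcripts differ between the 2 libraries, where allele, pool and library cannot be told apart. Cycling macrophages of the Fbn1 C1039G/+ library had 2675 histone CPM against 1272 CPM in the wild type, a ratio of 2.10 (2.00 to 2.22). Cycling interstitial cells had 1178 against 1446 CPM, a ratio of 0.81 (0.77 to 0.86), so the 2 classes differed in direction, a difference that was not tested. The endothelial ratio was 1.23 (1.11 to 1.37) in cycling cells. Among S-rich cells alone it was 1.13 (0.94 to 1.37) and among G2M-rich cells alone 1.04 (0.92 to 1.19), settings added after the values were seen. In non-cycling cells the ratios were 1.07 in interstitial cells, 1.30 (1.21 to 1.40) in macrophages and 0.95 (0.90 to 1.01) in endothelial cells.

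In cycling macrophages the ratio was above 1 for 47 of the 50 genes (46.1% of all genes), and its interval lay above 1 for 28 (5.46% of all genes) and below 1 for none (8.51%). All 14 H2B genes and all 5 H1 genes were on the higher side. The median log2 ratio of the 50 was 1.05 and that of all genes -0.06. By a rule of at least 1.5-fold with the interval excluding 1, 20 of 27 measured genes were higher (3.5% of 8237 genes) and none lower (7.44%), and 11 of the 27 passed 10 CPM only through the Fbn1 C1039G/+ library. The 20 became 5 after thinning to 3000 UMIs per cell, 8 with a level minimum of 30 CPM and 13 with cycling set at 1 UMI or more.

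Hist1h2ae was at 129 and 491 CPM, 3.81-fold higher (3.28 to 4.46). Hist1h1d was 3.93-fold higher (2.86 to 5.5), at 29.3 and 115 CPM, Hist1h2ap 2.32-fold, at 122 and 282 CPM, and Hist1h1e 1.92-fold, at 114 and 220 CPM. Hist1h1b, the highest gene of these cells, was 1.61-fold higher (1.46 to 1.77). Among the 27 measured genes, ratios were largest for genes near 0 in the wild type, Hist1h3a at 1.20 and 25.1 CPM, 21-fold (5.45 to 179), Hist1h2br at 2.40 and 23.9 CPM, and Hist1h2bb at 2.99 and 17.8 CPM. These genes passed the 10 CPM minimum only through the Fbn1 C1039G/+ library, so their high ratios were fixed by that minimum. The smallest ratios of the 27 were those of Hist3h2a with a ratio of 0.81 (0.42 to 1.54), Hist2h2ac with 1.02 (0.68 to 1.53) and Hist1h2bc with 1.16 (0.88 to 1.55), each with an interval that held 1.

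The difference in cycling macrophages was spread over many cells. Per cell, the histone level ran from 0 over a median of 869 CPM to 5507 CPM in the wild type and from 0 over 2691 CPM to 8817 CPM in the Fbn1 C1039G/+ library, so the ranges overlapped. Of the cells, 33 of 100 and 70 of 128 (54.7%) were above 2000 CPM. The 5 cells with most histone UMIs held 17.4% and 14.5% of them. The ratio was 2.06 (1.87 to 2.26) among S-rich cells alone and 1.91 (1.79 to 2.04) among G2M-rich cells alone, 2 settings added after the values were seen.

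S phase genes summed to 2726 and 2980 CPM and G2/M genes to 4743 and 5074 CPM, Top2a was at 666 and 711 CPM and Mki67 at 516 and 534 CPM. G2M-rich cells made up 52.0% of wild type and 57.8% of Fbn1 C1039G/+ cycling macrophages. Interstitial markers, all 10 detected, summed to 2683 and 1413 CPM and macrophage markers to 23036 and 25802 CPM, and median depth was 14827 and 11834 UMIs. The 4 T cell markers summed to 34.1 and 0.61 CPM, with Cd3d, Cd3e and Trbc2 at 0 in the Fbn1 C1039G/+ library, and the 4 melanocyte markers to 111 and 9.2 CPM. Their part in the result was not tested. Thinned to 3000 UMIs, the log2 ratio was 0.87 against 1.07.

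In cycling interstitial cells the ratio lay below 1 for 32 of 50 genes and above 1 for 18 (51.8% of all genes above 1). The interval lay below 1 for 9 (7.39% of all genes) and above 1 for 3 (8.14%). By the 1.5-fold rule 4 of 14 measured genes were lower (4.92% of 9124 genes). They were Hist1h1b at 392 and 232 CPM, 0.59-fold (0.53 to 0.66), Hist1h1e at 154 and 99.99 CPM, 0.65-fold, Hist1h2af at 14.4 and 7.84 CPM and Hist2h2ac at 16.2 and 5.22 CPM, 0.32-fold (0.16 to 0.61). Hist1h2af and Hist2h2ac passed the 10 CPM minimum only through the wild type library, so their direction was fixed by that minimum. None of the 14 was higher (4.66%). Hist1h2bc had a ratio of 1.40 (1.24 to 1.57) and Hist3h2a of 1.5 (1.05 to 2.15), the 2 highest of the 14 and neither reaching the 1.5-fold rule. The count of lower genes was 7 with cells of a second class left out, and the summed log2 ratio was -0.50 with predicted doublets removed against -0.30. S phase genes summed to 2446 and 2026 CPM there, T cell markers to 121 and 20.9 CPM and endothelial markers to 16.2 and 417 CPM, with Cdh5 at 0 in the wild type. Their part in the result was not tested.

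Over all 50 genes the cycling endothelial ratio was above 1 for 30 (52.1% of all genes) and below 1 for 14. Its interval lay above 1 for 2 (5.17%) and below 1 for 1 (6.25%). In cycling endothelial cells 2 of 13 measured genes were higher, Hist1h2bc 1.98-fold and Hist3h2a 2.15-fold (5.3% of 9176 genes), and Hist1h3c was lower, 0.42-fold (5.87%). In non-cycling endothelial cells Hist3h2ba was lower, 0.58-fold (0.35 to 0.96), as 1 of 6 measured genes (3.54% of 9016 genes), and none was higher (3.67%). At 12.7 and 7.41 CPM, Hist3h2ba passed the 10 CPM minimum only through the wild type library, so its direction was fixed by that minimum. For non-cycling endothelial cells 15 ratios were above 1 (48.9% of all genes) and 24 below, with 1 interval above 1 (7.45%) and 3 below (7.87%). For non-cycling interstitial cells 29 were above 1 (53.1%) and 20 below, with 7 intervals above (23.5%) and 6 below (18.0%). For non-cycling macrophages 36 were above 1 (48.9%) and 10 below, with 6 intervals above (8.44%) and none below (9.18%). Non-cycling interstitial cells had no call among 4 measured genes (0.934% of genes higher and 1.35% lower), with Hist1h2bc at 1.11 (1.09 to 1.13). Non-cycling macrophages had none among 5 (1.78% and 3.76%), with Hist1h2bc at 1.27 (1.13 to 1.43) and Hist3h2a at 1.38 (1.16 to 1.64).

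**Figure D5:**
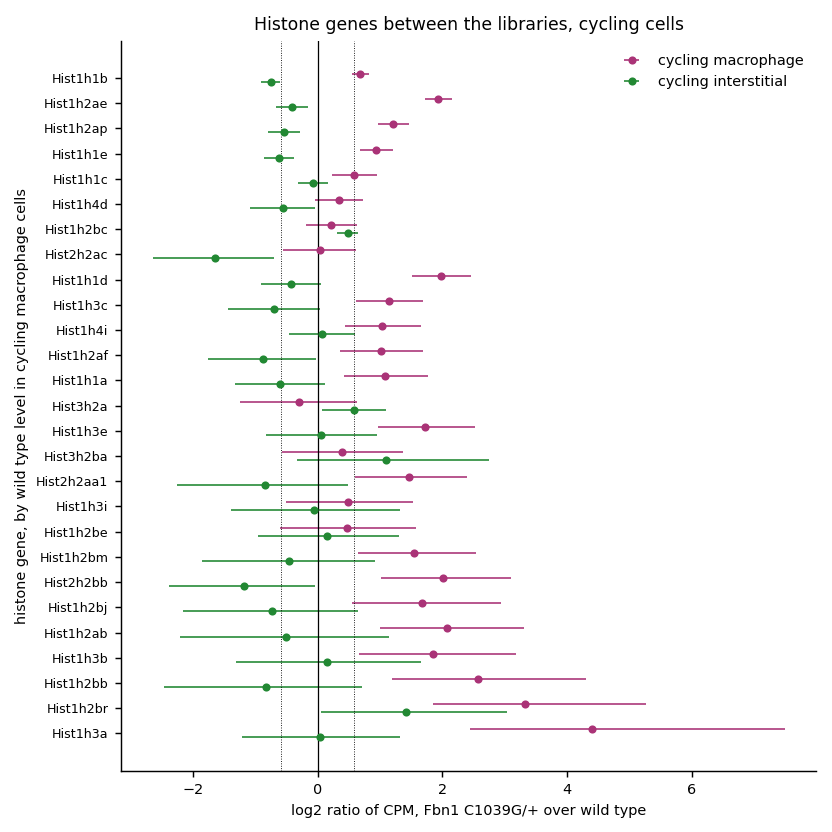
Log2 ratio of CPM, Fbn1 C1039G/+ over wild type, for the 27 histone genes measured in cycling macrophages (purple), with the same genes in cycling interstitial cells (green) and 95% intervals. Dotted lines mark 1.5-fold. All but 1 of the purple points lie at or above 0, 11 of the 27 passed the level minimum only through the Fbn1 C1039G/+ library, and Hist1h1b, Hist1h1e, Hist1h2ae and Hist1h2ap lie on opposite sides of 0 in the 2 classes.

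Genes that make, process and place histones were read beside them. Of 17 genes of histone mRNA transcription and processing 15 were measured, and in cycling interstitial cells Slbp, Eri1, a nuclease of histone mRNA decay, and Lsm11, a part of the particle that cuts histone mRNA, were higher (3 of 15, against 7.59% of all genes measured) and none lower (1.77%). Slbp was at 130 and 105 CPM against 32.6 and 31.1 CPM, 4.0-fold and 3.37-fold. Npat, the coactivator of histone genes, was at 21.3 and 24.6 CPM against 16.5 and 17.1 CPM and was not called. In macrophages Slbp and Eri1 were the 2 called of 15, against 5.28% of all genes. Slbp is on the S list that made the split. In S-rich against G2M-rich cells it was at 187 and 172 against 96.3 and 70.2 CPM in interstitial cells.

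Of 13 chaperones and assembly factors 5 were higher in cycling interstitial cells (7.59% of all genes) and 7 in macrophages (5.28%), and none lower (1.77% and 0.635%). Asf1b, which carries H3 and H4, was at 46.4 and 47 CPM against 0.38 and 0.40 CPM in interstitial cells, and Nasp, another H3 and H4 chaperone, at 106 and 99.6 CPM against 32.0 and 32.5 CPM. Most histone genes outside the clusters give mRNAs with poly(A) tails. H2afz was at 2589 and 2235 CPM in cycling against 191 and 211 CPM in non-cycling interstitial cells, 13.5-fold and 10.6-fold. H2afx was 11.0-fold and 8.46-fold higher, while H3f3a and H3f3b, which supply H3 outside replication, were at 1286 and 1114 CPM in wild type non-cycling cells and under 2-fold higher in cycling ones. Of this list 5 of 11 measured genes were called higher in interstitial cells and 4 of 9 in macrophages, against the same shares of all genes.

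Between genotypes in cycling macrophages none of the 15 measured processing genes was called and none of the 9 measured histone genes outside the clusters. Among S phase genes 3 of 32 were higher and 2 lower, among G2/M genes 2 of 34 higher and 1 lower, and among chaperones 1 of 13 lower. Of all genes measured there 3.5% were higher and 7.44% lower.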

How the data were processed

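Each deposited matrix holds UMI counts, not normalized, for genes by barcodes. The authors ran Cell Ranger (3.1.0 per the submitters' processing notes, 5.0.1 per the file headers) on mm10. The 2 libraries held 100969482 (wild type) and 103663375 (Fbn1 C1039G/+) UMIs in 9509 and 9744 barcodes. Filters removed barcodes under 500 genes or under 1000 UMIs and those over 20% mitochondrial UMIs. Doublets were kept. Scrublet in scanpy 1.11.5 called 238 and 1 by its own threshold, so an alternative removed the highest scores (696 and 752) at an expected 0.8% per 1000 barcodes. Cells meeting both the macrophage and the endothelial rule (13 and 10) count in both.

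UMIs were summed per library, class and state in Python 3.11.15, with SciPy 1.17.1, and scaled to CPM. Levels have exact Poisson, ratios exact conditional binomial and shares exact Clopper-Pearson intervals at 95%, for counting error only. Genes were measured at a mean of 10 CPM over the values compared. A count of 0 was set at 3 counts for a bound. No count model was fitted, as each genotype has 1 library. The 2-fold rule was tested on simulated sums of cycling and non-cycling cells, with counting error only. The 1.5-fold rule and the other comparisons were not simulated. The genes, lists, rules and comparisons were chosen with earlier results of these data known. The genes named are those highest in each state, those with the largest and smallest ratios, and the pathway genes with the largest changes. Stem-loop and AATAAA searches and S share groups were added after values were seen. Proteins were not compared. Alternatives covered the cell filter, doublets, class overlap, the cycling and level minimums, thinning, scaling, fold and pseudocount.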

Additional observations from a re-analysis of the deposited data

Results flagged for a closer look

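Hist1h1c, a linker histone gene, moved in opposite directions with cycling in different classes. In interstitial cells its log2 ratio of cycling to non-cycling cells was 0.62 in both libraries, in macrophages 0.50 and 0.85, and in endothelial cells -0.97 and -0.40, wild type first. The mean log2 ratio over the libraries was 1.31 higher in interstitial than in endothelial cells and 1.36 higher in macrophages than in endothelial cells. Both libraries of one class moved one way and both of the other the opposite way, and the difference itself was not tested. Cycling endothelial cells were 23 and 39.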

How the results depend on the processing

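No paired analysis between genotypes was possible because each genotype has 1 library, so both libraries carry replicate number 1 only. Cycling states, cell classes and S-rich and G2M-rich cells were compared within each library. Of the values that answer a comparison 264 stayed close under the alternatives and 57 moved, and of single genes 646 stayed close, 124 moved and 4 reversed. The cause was not tested, except that a level minimum or fold changes which genes can be called. Numbers are histone genes called unless given as log2 ratios.

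Called higher with cycling were 7 interstitial genes, 4 with a minimum of 30 CPM and 28 with none. In macrophages they were 13, 8 with cycling set at 1 UMI, 6 at 30 CPM and 28 with no minimum. The 1 macrophage gene called lower became 2 at 1.5-fold, 0 at 3-fold and 0 after thinning to 3000 UMIs. Genes higher in non-cycling endothelial than interstitial cells went from 0 to 2 at 1.5-fold and 2 with no minimum, and macrophage genes from 0 to 2 with no minimum. Macrophage genes lower than interstitial went from 1 to 0 at 3-fold and 3 with no minimum. With 1 cell cycle list at least 2 times the other, S-rich cells had 5 lower genes (1 before) in interstitial cells and 14 (7 before) in macrophages.

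Higher in Fbn1 C1039G/+ cycling macrophages were 20, 5 after thinning, 13 with cycling at 1 UMI and 8 at 30 CPM. In cycling interstitial cells 0 became 2 at the lower fold threshold, 1 with cycling at 4 UMIs and 1 with no minimum. The 2 of cycling endothelial cells became 1 at 2-fold, after thinning, with cycling at 1 UMI, at 30 CPM and with doublets removed. In non-cycling cells 0 became 1 (endothelial) and 1 (interstitial) with no minimum, and for macrophages 2 at the lower fold threshold, 2 after thinning and 4 with no minimum. Lower in cycling interstitial cells were 4, 7 at the lower fold threshold, 7 without cells of a second class, 1 at 2-fold, and 2 after thinning, with cycling at 4 UMIs and at 30 CPM. The 1 of cycling endothelial cells became 0 at 30 CPM and 0 with doublets removed. The 1 of non-cycling endothelial cells became 2 at the lower fold threshold, 0 at 2-fold, 0 at 30 CPM and 2 with no minimum, and non-cycling interstitial cells went from 0 to 2 with no minimum.

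Summed log2 ratios of genotype moved in cycling endothelial cells from 0.30 to 0.059 in G2M-rich cells alone (added after seeing the data), 0.13 without second-class cells and 0.085 with cycling at 1 UMI. In cycling interstitial cells -0.30 became -0.40 without second-class cells and -0.50 with doublets removed. In cycling macrophages 1.07 became 0.93 in G2M-rich cells alone and 0.87 after thinning. Thinning gave -0.37 in non-cycling endothelial, 0.052 (0.097 before) in non-cycling interstitial and 0.55 (0.38 before) in non-cycling macrophage cells, and median-of-ratios scaling 0.065 in non-cycling interstitial cells. Cycling over non-cycling sums moved from 0.75 to 1.02 in endothelial cells with cycling at 4 UMIs and from 1.54 to 1.13 in interstitial cells with cycling at 1 UMI. Thinning reversed the mean log2 ratio of cycling to non-cycling endothelial cells for Hist1h4d (-0.0902), Hist2h2ac (-0.91) and Hist3h2ba (-0.90), and of macrophages for Hist2h3c2 (-0.0702).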
